A study of Mus musculus with 12 samples.

Results

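The subunits of oxidative phosphorylation were followed in murine hip cartilage before and after injury, in wild-type (WT) mice and in Mapk9 knockout mice (Mapk9 KO). Mapk9 is the gene of JNK2, one of the c-Jun N-terminal kinases. The members were all probes of the normalized array table whose gene symbol names a nuclear-encoded subunit: the Nduf genes of the a, b, c, s and v series, Sdha to Sdhd, the Uqcr genes, Cox4 to Cox8 and Atp5a to Atp5o. This rule found 94 of 21004 probes, for 68 of 15434 gene symbols. Complex I held 41 probes for 30 genes, complex II 4 probes for 3 genes, complex III 6 probes for 5 genes, complex IV 20 probes for 15 genes, and complex V 23 probes for 15 genes. Of the 94 probes, 83 were detected on all 12 arrays (detection p under 0.05) and 92 on at least 3. Another 18 probes with matching symbols lie outside the normalized table, and the symbols Sdha, Ndufs1, Uqcrfs1, Uqcrq, Cox6b2, Cox7b2 and Cox8c occurred only there, at probes detected on 0 arrays.

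The 12 Illumina BeadChip arrays form 4 groups of 3, with control and injured cartilage from WT and from Mapk9 KO mice. All mice were on the C57BL6 background and 4 to 6 weeks old by the labels, and by the methods every array measured RNA pooled from the hips of several mice. Injury was the avulsion of the femoral epiphysis, control hips were snap-frozen at once, and injured hips were kept in culture for 4 h, so that an effect of injury and an effect of culture cannot be told apart. The labels name the knockout and no other allele, promoter or Cre. Values below are normalized log2 signals, a fold change is injured minus control on that scale, and a probe rose or fell where the adjusted p of limma over all 21004 probes was under 0.05. The fold limit is the threshold of the study, a fold change above 2 together with that adjusted p. Each gene is described at its main probe, the probe with the highest mean over the 12 arrays, unless another is named.

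The first Mapk9 probe read 10.88, 10.90 and 10.50 on the WT control arrays and 9.14, 9.28 and 9.15 on the Mapk9 KO control arrays, a genotype difference of -1.57 ± 0.21 (SE, adjusted p = 0.0151). The chondrocyte markers Col2a1 and Agc1 (aggrecan) were detected on all 12 arrays. A list of 20 skeletal muscle genes was detected as well, 15 of them on every array, and its mean log2 signal was 10.62, 10.06 and 11.997 on the WT control arrays and 12.11 to 12.29 on the Mapk9 KO control arrays, against 7.61 to 9.46 on the WT injured arrays and 7.98 to 9.07 on the Mapk9 KO injured arrays. WT control replicate 3 thus stood apart from the other WT controls and close to the Mapk9 KO controls. In such bulk tissue, fewer cells of a type and less RNA per cell cannot be told apart.

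Oxidative phosphorylation is the last stage of aerobic energy metabolism. Complex I (NADH dehydrogenase) and complex II (succinate dehydrogenase) pass electrons to ubiquinone, complex III hands them to cytochrome c, complex IV (cytochrome c oxidase) gives them to oxygen, and complex V, the ATP synthase, uses the resulting proton gradient to make ATP. Articular chondrocytes live in a tissue without blood vessels and draw much of their energy from glycolysis, whereas skeletal muscle is rich in mitochondria and carries its own forms of some cytochrome c oxidase subunits, among them Cox6a2, Cox7a1 and Cox8b. Cox7a1 and Cox8b are also known from brown fat.

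The muscle isoforms moved more than any other members at their main probes in both genotypes. Cox6a2, the muscle and heart form of subunit 6a, read 11.58, 11.33 and 13.17 on the WT control arrays and 9.73, 10.41 and 10.73 on the WT injured arrays. On the Mapk9 KO arrays it read 13.68, 13.79 and 13.40 before and 9.67, 10.38 and 9.20 after injury. The control and injured arrays of Cox6a2 did not overlap in either genotype. It fell by 1.74 ± 0.44 (SE, adjusted p = 0.0169) in WT, a 3.33-fold lower signal, and fell by 3.87 ± 0.27 (SE, adjusted p = 2.15e-06) in Mapk9 KO, a 14.6-fold lower signal.

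Cox7a1, the muscle form of subunit 7a, read 10.48, 10.12 and 12.66 in WT controls and 6.82, 8.10 and 9.23 in WT injured cartilage. In Mapk9 KO the values were 13.05, 13.19 and 12.81 in controls and 7.66, 8.11 and 7.12 after injury. Its groups were separate in both genotypes, with the WT control array of replicate 3 more than 2 log2 units above the other WT controls. Cox7a1 fell by 3.04 ± 0.69 (SE, adjusted p = 0.0097) in WT, 8.2-fold, and fell by 5.38 ± 0.25 (SE, adjusted p = 1.66e-07) in Mapk9 KO, 41.7-fold. Cox8b, the muscle form of subunit 8, read 10.98, 10.67 and 12.87 in WT controls and 7.05, 8.66 and 9.77 after injury. In Mapk9 KO it read 13.36, 13.52 and 13.15 in controls and 7.87, 8.84 and 7.47 after injury. Cox8b fell by 3.01 ± 0.68 (SE, adjusted p = 0.00953) in WT and fell by 5.29 ± 0.30 (SE, adjusted p = 5.52e-07) in Mapk9 KO. In WT, the change of Cox7a1 was -2.25 without WT control replicate 3, -2.42 without WT injured replicate 1 and -3.63 without WT injured replicate 3, and that of Cox8b was -2.33, -2.29 and -3.65. Without WT injured replicate 1, Cox6a2 missed the threshold in WT (adjusted p = 0.0652), while Cox7a1 and Cox8b still passed it. All of these isoforms missed it in WT by the methods' t-test (adjusted p = 0.15 to 0.167) and in limma over all probes of the array after normexp and quantile normalization (adjusted p = 0.0946 to 0.133).

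The partners of these isoforms in other tissues changed far less. Cox6a1 read 13.002, 12.91 and 12.52 in WT controls and 12.98, 13.25 and 12.97 after injury, and 12.94, 13.07 and 13.01 in Mapk9 KO controls and 12.81, 12.99 and 12.58 after injury. Cox8a lay between 12.71 and 13.20 in WT controls, 13.08 and 13.36 in WT injured, 12.97 and 13.15 in Mapk9 KO controls, and 12.71 and 13.23 in Mapk9 KO injured cartilage. The control and injured arrays of both partners overlapped in both genotypes, and neither passed the test in WT or in Mapk9 KO. Cox7a2 was dimmer, at 6.87 to 7.82 in WT controls and 6.70 to 7.51 after injury, and fell by 0.85 ± 0.28 (SE, adjusted p = 0.0354) in Mapk9 KO, from 7.39 to 8.47 down to 6.72 to 7.46.

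**Figure D1:**
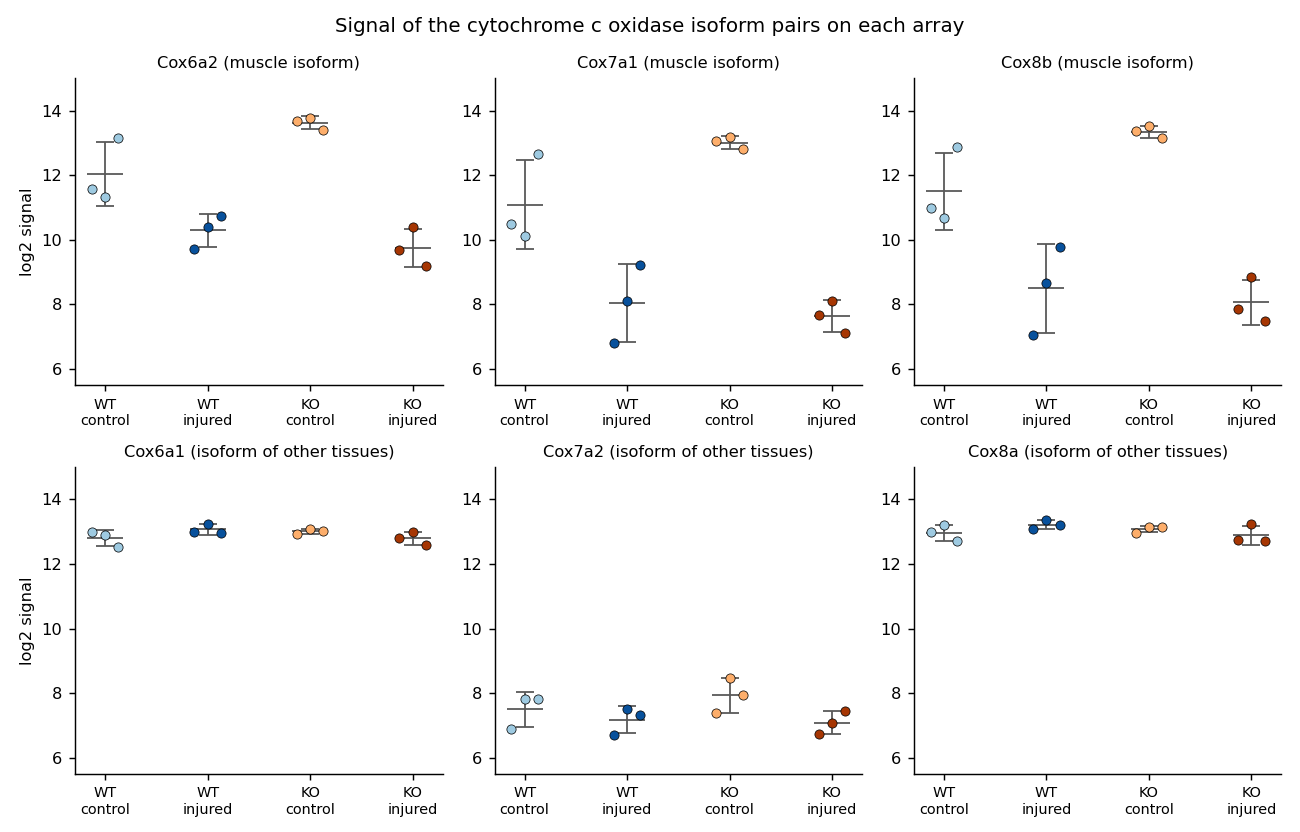
Normalized log2 signal (vertical axis) of the muscle isoforms (upper row) and their partners of other tissues (lower row) in the 4 groups of 3 arrays; points are arrays, horizontal bars the group means and error bars the SD. The muscle isoforms drop from control to injured arrays in both genotypes, while Cox6a1 and Cox8a stay between 12.52 and 13.36, and WT control replicate 3 lies above the other WT controls for each muscle isoform.

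The difference between each muscle isoform and its partner was compared between control and injured arrays within genotypes, since only the change of such a difference, not its level, can be read from separate probes. Cox6a2 minus Cox6a1 fell by 1.99 in WT and fell by 3.66 in Mapk9 KO on the log2 scale. Cox7a1 minus Cox7a2 fell by 2.71 in WT and fell by 4.53 in Mapk9 KO. Cox8b minus Cox8a fell by 3.27 in WT and fell by 5.09 in Mapk9 KO. Averaged over the genotypes the changes were -2.82, -3.62 and -4.18, each with p = 0.005 in a two-sided exact permutation test within genotypes (400 arrangements) and an adjusted p of 0.005 over the 3 pairs, which is the smallest p this design allows. Paired by replicate number, injured minus control was negative in 6 of 6 differences for each isoform pair (two-sided exact sign-flip test, p = 0.0312).

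The upstream sequences of the genes in these pairs are shown because the members of a pair moved apart. RefSeq (GRCm38.p6) gave promoters for Cox7a1, Cox7a2, Cox8b, Cox8a and Cox6a1 among the genes of the pairs, and Cox6a2 was not used here. The 250 bases before the annotated start are printed 5′ to 3′ in the direction of transcription, in lower case, with matches in capitals to the E-box (CANNTG), to the NRF1 core (GCGCATGCG), to the estrogen-related receptor (ERR) element (TCAAGGTCA) and to the MEF2 element, each searched on both strands.
Cox7a1, chr7:30183921-30184170, plus strand: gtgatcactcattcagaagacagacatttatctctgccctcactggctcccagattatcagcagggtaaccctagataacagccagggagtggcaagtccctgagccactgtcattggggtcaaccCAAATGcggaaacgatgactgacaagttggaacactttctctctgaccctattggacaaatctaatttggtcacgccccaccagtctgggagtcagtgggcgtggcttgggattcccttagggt
Cox7a2, chr9:79759854-79760103, minus strand: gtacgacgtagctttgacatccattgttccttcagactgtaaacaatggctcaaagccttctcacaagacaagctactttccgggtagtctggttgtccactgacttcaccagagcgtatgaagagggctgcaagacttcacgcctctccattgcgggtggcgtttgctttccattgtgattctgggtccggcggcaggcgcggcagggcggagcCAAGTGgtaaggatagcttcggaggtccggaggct
Cox8b, chr7:140900447-140900696, minus strand: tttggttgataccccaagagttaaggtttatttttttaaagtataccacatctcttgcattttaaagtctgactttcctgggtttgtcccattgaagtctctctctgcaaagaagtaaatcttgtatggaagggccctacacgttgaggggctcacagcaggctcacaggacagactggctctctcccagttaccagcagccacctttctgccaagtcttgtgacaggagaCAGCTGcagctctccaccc
Cox8a, chr19:7217617-7217866, minus strand: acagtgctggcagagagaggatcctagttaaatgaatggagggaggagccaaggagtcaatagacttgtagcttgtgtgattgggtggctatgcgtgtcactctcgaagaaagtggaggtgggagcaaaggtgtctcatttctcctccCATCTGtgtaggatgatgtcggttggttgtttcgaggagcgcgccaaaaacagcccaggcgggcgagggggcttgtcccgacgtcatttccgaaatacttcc
Cox6a1, chr5:115348959-115349208, minus strand: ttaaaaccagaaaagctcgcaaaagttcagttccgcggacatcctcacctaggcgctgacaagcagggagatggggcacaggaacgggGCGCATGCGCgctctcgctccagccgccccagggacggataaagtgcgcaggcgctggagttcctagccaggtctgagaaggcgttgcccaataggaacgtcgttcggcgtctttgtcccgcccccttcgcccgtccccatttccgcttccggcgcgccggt
The muscle isoforms Cox7a1 and Cox8b and their partners Cox7a2 and Cox8a each held 1 E-box, and Cox6a1 held an NRF1 core that matched on both strands with overlap. Over the 62 promoters found for 57 member genes, 64.5% held an E-box, against 66.2% of the 32851 promoters of this length that were searched. The search left out the promoters of a whole chromosome, so all promoters here means those searched. The NRF1 core was found in 6 of the 62 member promoters (9.68%), those of Atp5g2, Atp5k, Atp5l, Cox6a1, Ndufa11 and Ndufa8, against 1.45% of all promoters. The ERR element was found in 1 member promoter, that of Atp5g3, and the MEF2 element in 0 of 62, against 0.387% and 0.508% of all promoters. A match describes letters in this window and not a bound site.

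Among all 94 probes, 4 fell and 3 rose in WT, where 12.7% of all probes fell and 12.6% rose. Past the fold limit were 3 that fell, the muscle isoforms, and 1 that rose, Cox4i2, where 7.14% and 7.55% of all probes passed in these directions. The median change of the members was -0.22, against -0.02 for all probes, and 69 of 94 probes lay below 0. With replicate numbers as a block, 11 members fell in WT, among them Ndufb9, Sdhd and Cox6c, where 15.2% of all probes fell. In Mapk9 KO, 66 probes fell and 2 rose, where 19.3% of all probes fell and 19% rose. Past the fold limit were 25 that fell and 2 that rose, against 9.14% and 9.59% of all probes. The median change there was -0.79, against -0.02 for all probes, and 88 of 94 probes lay below 0. The share of members that fell in Mapk9 KO, 70.2%, was above that of all probes. In WT the share was 4.26%, below that of all probes, but this order depended on the normalization: after normexp background correction with quantile normalization 17.0% of the members and 13.4% of all probes fell, and after quantile normalization alone 27.7% and 13.9%. Fitted over all probes of the array with normexp and quantile normalization, the shares were 7.45% and 5.36%. Without WT control replicate 1 the shares were 9.57% and 8.02%. Over the 68 genes, the changes in WT and in Mapk9 KO, which share no array, correlated with a Pearson r of 0.946 and a Spearman rho of 0.771, and over the 65 genes without the muscle isoforms with an r of 0.833. The genes share arrays, so these values only describe them.

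**Figure D2:**
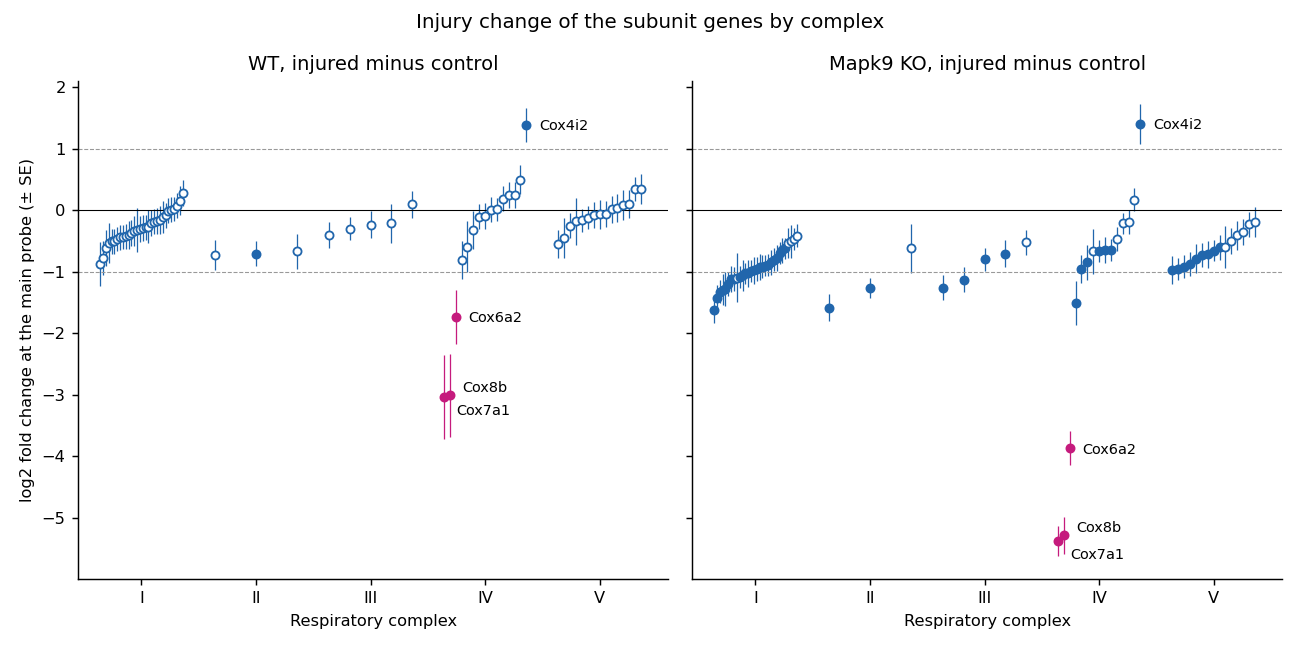
Log2 fold change from control to injured cartilage (vertical axis, ± SE) at the main probe of 68 subunit genes, arranged by respiratory complex and ordered by value, in WT (left) and Mapk9 KO (right). Filled points passed an adjusted p of 0.05, the muscle isoforms are magenta, and dashed lines mark the fold limit of 2; most points are open in WT and filled below 0 in Mapk9 KO, with Cox4i2 above the limit in both.

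Complex I carries a catalytic core, which binds NADH and holds the iron-sulfur clusters, and many accessory subunits. In WT, 0 of its 41 probes passed the test (limma; 7 had an unadjusted p under 0.05) and 35 lay below 0, with a median of -0.31. With the replicate block 3 of its 30 genes fell in WT (10%, against 14.96% of all genes), Ndufb9 among them (adjusted p = 0.0216). In Mapk9 KO, 25 of its 30 genes fell, where 20.3% of all genes fell at their main probes. The median was -0.96 over the genes of complex I, with a range from -1.63 to -0.41. Of the core subunits, Ndufv1, the NADH-binding flavoprotein, fell by 0.91 ± 0.18 (SE, adjusted p = 0.0026) in Mapk9 KO, Ndufv2 fell by 1.03 ± 0.22 and Ndufs7 fell by 1.09 ± 0.18.

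Ndufb9, an accessory subunit of the membrane arm, had the largest fall of complex I in Mapk9 KO, at a dim probe detected on 11 arrays. Its arrays read 7.76, 7.99 and 8.48 in Mapk9 KO controls and 6.46, 6.52 and 6.37 after injury. The groups were separate by more than 1 log2 unit, and Ndufb9 fell by 1.63 ± 0.21 (SE, adjusted p = 0.000137), a 3.09-fold lower signal. In WT it read 6.27, 7.20 and 7.79 in controls and 5.81, 6.35 and 6.47 after injury, groups that overlapped. Ndufa5, an accessory subunit of the matrix arm, read 13.06, 13.10 and 12.57 in Mapk9 KO controls and 11.29, 11.75 and 11.40 after injury, and fell by 1.43 ± 0.21 (SE, adjusted p = 0.000334). Its WT arrays read 11.88, 12.33 and 12.18 in controls and 11.65, 11.83 and 11.61 after injury, a change of -0.44 ± 0.20 (SE) that did not pass the test. With the replicate block a probe of Ndufa5 passed in WT. The second Ndufa5 probe changed by -0.71 in WT and by -0.71 in Mapk9 KO, and without the block it passed in Mapk9 KO only.

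Past the fold limit in Mapk9 KO were Ndufb9, Ndufa5 and the core subunits Ndufs7 (2.12-fold lower) and Ndufv2 (2.04-fold). Complex I further held Ndufa9 (2.51-fold lower), Ndufb2 (2.45-fold, detected on 10 arrays), Ndufb5 (2.43-fold), Ndufa4 (2.29-fold), Ndufc1 (2.17-fold), Ndufb8 (2.17-fold), Ndufb10 (2.08-fold) and Ndufb3 (2.04-fold) there. Ndufa4 is grouped here by its symbol, although its protein is now known as a partner of complex IV. Ndufa11 changed by 0.02 ± 0.20 (SE) in WT and fell by 0.89 ± 0.18 (SE, adjusted p = 0.00271) in Mapk9 KO. With Cox6a2, Ndufa5 and Uqcrc1 it shared the smallest adjusted p of the interaction, the limma test of a different injury change between genotypes. That adjusted p was 0.312 and did not pass the threshold. The complex I genes that did not pass the test in Mapk9 KO were Ndufa2, Ndufa6, Ndufa7, Ndufb4 and Ndufb6. With the replicate block Ndufa2 (adjusted p = 0.0293), Ndufa7 (adjusted p = 0.0298) and Ndufb4 (adjusted p = 0.00443) passed as well.

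Complex II oxidizes succinate in the citric acid cycle, with an iron-sulfur subunit, Sdhb, and membrane anchors, Sdhc and Sdhd. Sdhc was the only member outside the muscle isoforms that fell in WT in the fit without a replicate block: it read 11.40, 11.37 and 11.60 in controls and 10.54, 10.86 and 10.86 after injury, and fell by 0.70 ± 0.20 (SE, adjusted p = 0.0262). Its WT groups did not overlap, but it missed the threshold when any array other than WT control replicate 2 was left out, with adjusted p up to 0.101. In Mapk9 KO it read 11.73, 11.81 and 11.94 in controls and 10.49, 10.70 and 10.49 after injury, and fell by 1.26 ± 0.17 (SE, adjusted p = 0.000182). Sdhb read 10.47, 11.02 and 11.12 in Mapk9 KO controls and 9.14, 9.58 and 9.12 after injury, a 3.00-fold lower signal (adjusted p = 0.000253). In WT controls Sdhb read 9.72, 9.76 and 10.77, again with replicate 3 above the others, and 9.30 to 9.48 after injury, a change of -0.67 ± 0.28 (SE, adjusted p = 0.115). Without WT control replicate 3 that change was -0.32. Sdhd, detected on 9 arrays, changed by -0.72 ± 0.25 (SE) in WT and -0.61 ± 0.40 (SE) in Mapk9 KO, neither past the threshold in the main fit. Leaving out each array, its change in Mapk9 KO ran from -1.04 to -0.21. In WT it passed after normexp and quantile normalization, with the label code number as a block, with 1 probe per gene and without WT control replicate 1. With the replicate block Sdhd fell in both genotypes, at adjusted p = 0.0447 in WT and adjusted p = 0.016 in Mapk9 KO.

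Complex III moves electrons from ubiquinol to cytochrome c. In WT its main probes changed between -0.40 and 0.10, and 0 of 5 genes passed (0 with an unadjusted p under 0.05). In Mapk9 KO 4 of 5 genes fell, where 20.3% of all genes fell. Uqcrh missed the threshold at -0.52 ± 0.20 (SE, adjusted p = 0.0672) and passed it with the replicate block (adjusted p = 0.0264). Uqcrc1, a core protein of the complex, read 12.28, 12.47 and 12.49 in Mapk9 KO controls and 11.10, 11.48 and 10.88 after injury, and fell by 1.26 ± 0.20 (SE, adjusted p = 0.000539). Uqcr, named Uqcr11 in RefSeq, fell by 1.13 ± 0.20 (SE, adjusted p = 0.00122). Uqcrb gave opposite results at its probes. The main probe, from a RefSeq transcript, fell by 0.71 ± 0.22 (SE, adjusted p = 0.027) in Mapk9 KO. The second probe, designed on a cDNA clone record, rose by 0.78 ± 0.23 (SE, adjusted p = 0.0312) in WT and by 1.10 ± 0.18 (SE, adjusted p = 0.0007) in Mapk9 KO. Uqcrb is therefore uncertain.

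Complex IV held both the largest falls and the only rise at a main probe. Cox4i2, an isoform of subunit 4 known from lung and from cells short of oxygen, read 8.34, 8.08 and 8.53 in WT controls and 9.09, 10.12 and 9.90 after injury. In Mapk9 KO it read 8.68, 8.89 and 7.42 in controls and 9.83, 9.74 and 9.65 after injury. Its groups were separate in both genotypes. Cox4i2 rose by 1.39 ± 0.28 (SE, adjusted p = 0.00548) in WT, 2.62-fold, and by 1.41 ± 0.33 (SE, adjusted p = 0.00589) in Mapk9 KO, 2.66-fold. Cox4i1, the form of subunit 4 in most tissues, changed by 0.19 ± 0.20 (SE) in WT and by -0.47 ± 0.19 (SE, adjusted p = 0.0761) in Mapk9 KO.

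Leaving out the muscle isoforms, complex IV had a median of 0.01 over 12 genes in WT and -0.65 in Mapk9 KO. There 6 of the 12 fell, where 20.3% of all genes fell. Cox5a fell by 0.66 ± 0.19 (SE), Cox5b fell by 0.64 ± 0.18 and Cox6b (Cox6b1 in RefSeq) fell by 0.96 ± 0.22 in Mapk9 KO, against changes of -0.10, 0.02 and -0.09 in WT. Cox7b, at 5.28, 6.71 and 6.78 in Mapk9 KO controls, was not detected on any injured array, and its signal was at least 1.32-fold lower there (adjusted p = 0.00629). Cox7a2l, which takes part in joining complexes III and IV, changed by 0.50 ± 0.23 (SE) in WT and 0.18 ± 0.18 (SE) in Mapk9 KO and passed in neither. Cox4i1, Cox6a1, Cox6c, Cox7a2l and Cox8a did not pass the test in Mapk9 KO. Of these, Cox6c passed with the replicate block, at -0.81 ± 0.16 (SE, adjusted p = 0.0118) in WT and -0.67 ± 0.20 (SE, adjusted p = 0.0361) in Mapk9 KO.

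Complex V had no member past the fold limit in either genotype. In WT 0 of its 15 genes passed (1 had an unadjusted p under 0.05), with a median of -0.07. In Mapk9 KO 9 fell, where 20.3% of all genes fell. The median of the complex V genes there was -0.66, with a range from -0.97 to -0.19. Atp5j, coupling factor F6 of the peripheral stalk, read 13.59, 13.66 and 13.06 in Mapk9 KO controls and 12.33, 12.79 and 12.28 after injury, and fell by 0.97 ± 0.22 (SE, adjusted p = 0.00551). Its second probe gave -0.02 ± 0.16 (SE). Of the genes of subunit c, the proton-carrying ring, Atp5g1 fell by 0.95 ± 0.18 (SE, adjusted p = 0.00178) in Mapk9 KO. Atp5g2 was at -0.23 ± 0.20 and Atp5g3 at -0.35 ± 0.21 there, neither past the threshold. The difference between these genes was not tested. Atp5b, the catalytic beta subunit, read 14.15, 14.04 and 13.38 in WT controls and 14.31, 14.29 and 14.03 after injury, and 14.52, 14.20 and 13.62 in Mapk9 KO controls and 13.95, 14.19 and 13.63 after injury. These groups overlapped in both genotypes. Atp5a1, the alpha subunit, was dimmer at 6.95 to 8.80 over the arrays and passed in neither. Atp5c1 and Atp5l also did not pass in Mapk9 KO. With the replicate block Atp5a1 (adjusted p = 0.0173) and Atp5l (adjusted p = 0.029) passed there. A dim probe of Atp5f1 (Atp5pb in RefSeq), again from a cDNA clone record, rose by 0.78 ± 0.25 (SE, adjusted p = 0.0432) in WT, while its main probe changed by -0.55 ± 0.22 there.

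**Figure D3:**
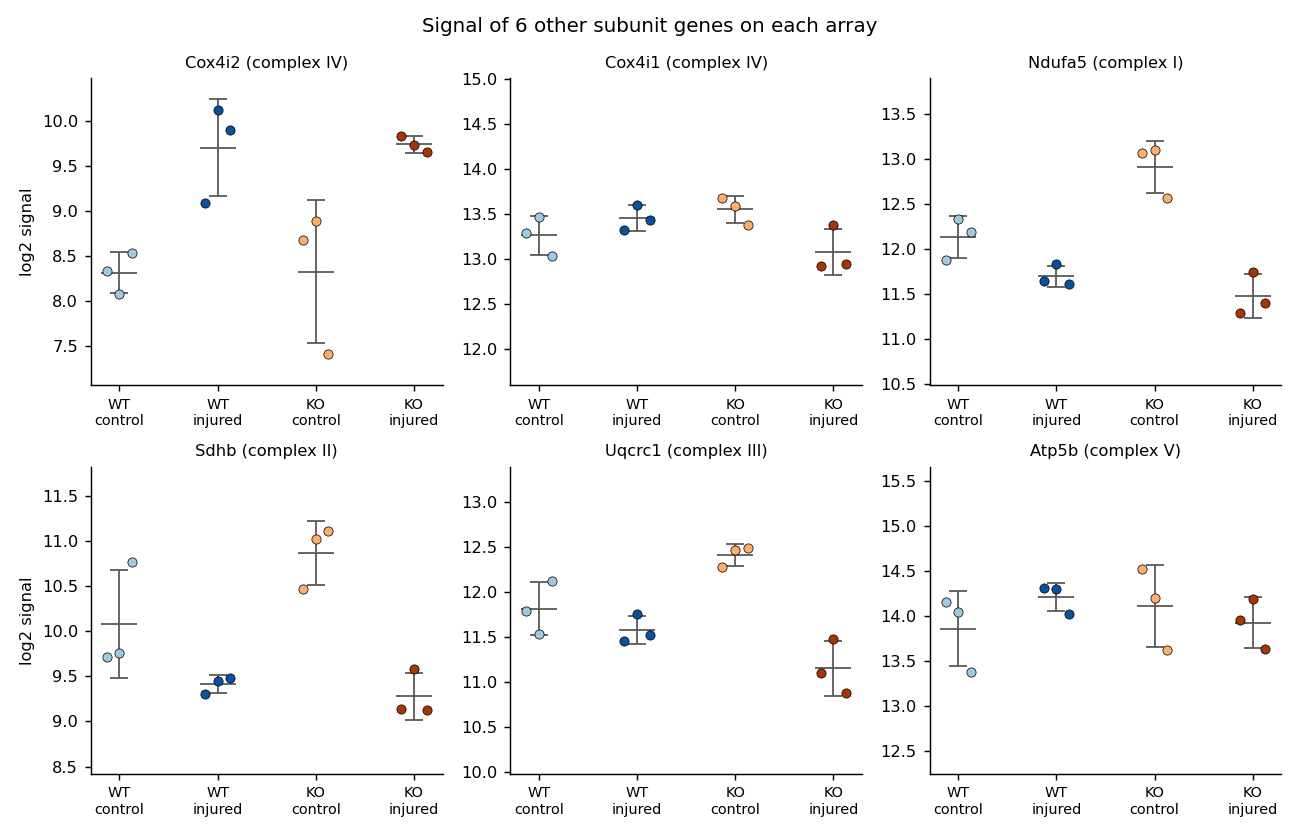
Normalized log2 signal (vertical axis, each panel spanning the same number of log2 units) of Cox4i2, Cox4i1, Ndufa5, Sdhb, Uqcrc1 and Atp5b in the 4 groups of 3 arrays, with points for arrays, bars for means and error bars for the SD. Cox4i2 lies higher after injury in both genotypes, Ndufa5, Sdhb and Uqcrc1 separate most in Mapk9 KO, and the groups of Atp5b overlap.

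The genotypes were also compared directly. In controls, 66 of 68 genes read higher in Mapk9 KO than in WT, with a median of 0.48, where 51.9% of all genes read lower. However, 0 of 94 probes passed the test (limma, 31 had an unadjusted p under 0.05), where 0.119% of all probes passed. Cox6a2 was higher by 1.59 ± 0.41 (SE, adjusted p = 0.423), Cox7a1 by 1.93 ± 0.53 (SE, adjusted p = 0.506) and Cox8b by 1.84 ± 0.47 (SE, adjusted p = 0.423) in Mapk9 KO controls. Without WT control replicate 3 these values were 2.16 (adjusted p = 0.000714), 2.72 (adjusted p = 0.000246) and 2.52 (adjusted p = 0.000326), and a second Sdhb probe passed too. After injury, 56 of 68 genes read lower in Mapk9 KO than in WT, with a median difference of -0.20.

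The change with injury was lower in Mapk9 KO than in WT for 65 of 68 genes, against 54.4% of all genes. The control arrays enter this count and the count of controls above, and the genes share arrays, so these counts are not independent. The interaction had a median of -0.60 over the 94 probes and -0.02 over all probes, and 0 members passed (limma; 40 had an unadjusted p under 0.05), as did 0% of all probes. Cox6a2 had an interaction of -2.13 ± 0.59 (SE), Ndufa5 of -0.995 ± 0.28 and Uqcrc1 of -1.02 ± 0.29, all with adjusted p = 0.312. At the second Ndufa5 probe the change was -0.71 in WT and -0.71 in Mapk9 KO, so the main probe alone carries that difference. Cox4i2 had an interaction of 0.02 ± 0.48. A larger fall in Mapk9 KO is thus not shown by the test of the difference on all 12 arrays. Without WT control replicate 3, Cox6a2 (-2.70, adjusted p = 0.00864) and Cox7a1 (-3.13, adjusted p = 0.0413) passed it.

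The skeletal muscle list moved with these results. Of its 20 genes, 15 fell in WT and 20 in Mapk9 KO, where 12.7% and 20.3% of all genes fell. The medians were -2.66 and -3.99, and all 20 read higher in Mapk9 KO controls than in WT controls. The mean of the muscle isoforms was 11.01, 10.71 and 12.90 in WT controls, 13.36, 13.50 and 13.12 in Mapk9 KO controls, 7.86 to 9.91 in WT injured and 7.93 to 9.11 in Mapk9 KO injured cartilage. The arrays with the highest muscle list mean in each of these groups were also those with the highest mean of the muscle isoforms, and WT control replicate 3 led the WT controls in both. Casq1 and Tnni1 of the list were not detected on any injured array, while Ckm, Mb and Acta1 were detected on every array. With the list mean as a covariate, 0 members fell in WT and 0 in Mapk9 KO, whether each genotype was fitted alone or all 12 arrays together. In the fit of all arrays Cox7a1 was at -0.10 ± 0.32 (SE) in WT and -0.60 ± 0.46 in Mapk9 KO, the median of the members at 0.03 and -0.41, and Cox4i2 at 2.14 ± 0.52 (SE, adjusted p = 0.0188) in WT and 2.64 ± 0.76 (SE, adjusted p = 0.0679) in Mapk9 KO, where its call was lost. The list mean itself separates control from injured arrays, so that covariate and injury are close to confounded: fitted in Mapk9 KO alone, the standard error of Cox7a1 went from 0.25 to 1.02 around a value of -2.08, Cox4i2 was at 2.51 ± 1.98 (SE), the median of the members was 0.45, and 0 of all 21004 probes passed.

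**Figure D4:**
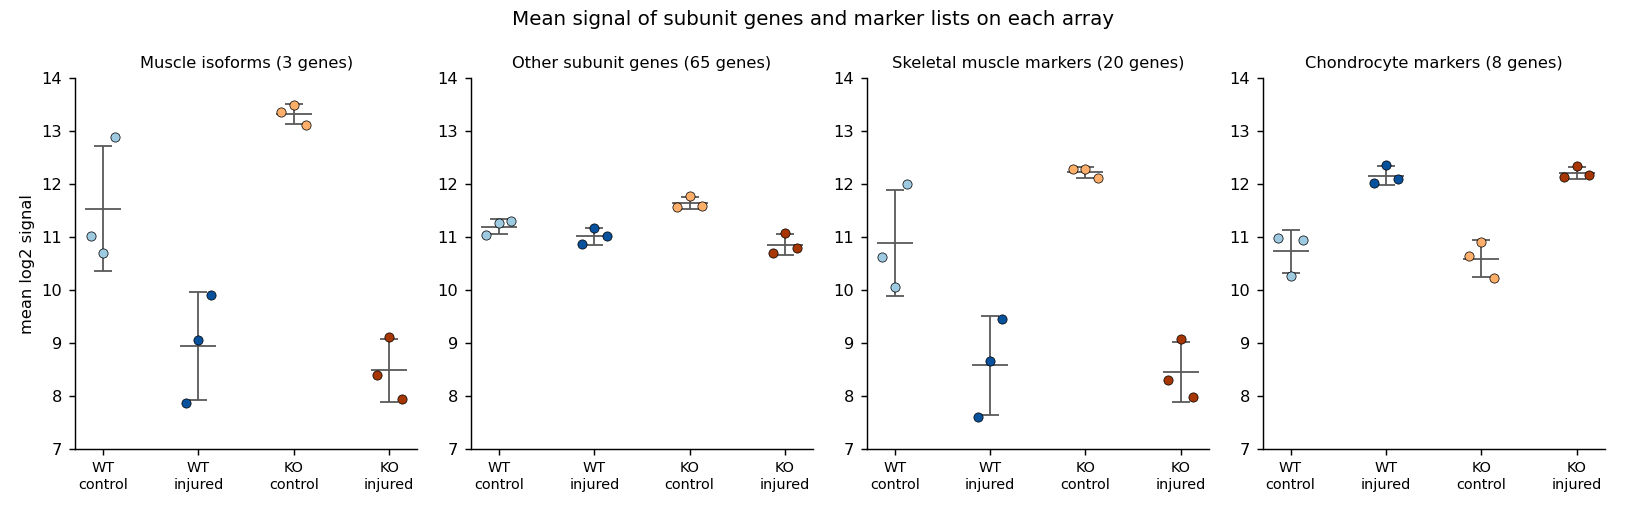
Mean normalized log2 signal (vertical axis) of the muscle isoforms, the other 65 subunit genes, 20 skeletal muscle markers and 8 chondrocyte markers in the 4 groups of 3 arrays, with points for arrays, bars for means and error bars for the SD. The muscle isoforms and the muscle markers fall together by group and array, the other subunit genes span a much smaller range, and the chondrocyte markers lie higher after injury.

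Other cell types were listed beside them, each gene at its main probe. Of all genes, 12.7% fell and 12.7% rose in WT, and 20.3% fell and 18.1% rose in Mapk9 KO. The brown fat list (Ucp1, Cidea and Ppargc1a measured of 6) had a mean of 6.21, 5.40 and 9.28 in WT controls, 7.03, 7.08 and 9.68 in Mapk9 KO controls and at most 5.02 after injury, where Ucp1 and Cidea were detected on 0 arrays. Of these genes 1 fell in WT and 3 in Mapk9 KO. Replicate 3 had the highest brown fat mean of the controls in both genotypes; its mean of the muscle isoforms was the highest of the WT controls and the lowest of the Mapk9 KO controls. The white fat list (4 measured of 8) had a mean of 6.41, 6.19 and 7.81 in WT controls, 6.85, 6.88 and 9.06 in Mapk9 KO controls and at most 5.25 after injury, and 2 of its genes fell in WT and 3 in Mapk9 KO. Of 5 macrophage genes, 3 fell and 1 rose in WT and 4 fell and 1 rose in Mapk9 KO, with medians of -1.38 and -1.54. At most 1 gene of each of the erythroid, neutrophil, endothelial and osteoblast lists passed in either genotype, whereas with the replicate block 3 of 6 neutrophil genes rose and 1 erythroid gene fell in WT, and 1 endothelial gene rose and 1 fell in Mapk9 KO. Chondrocyte markers rose, 7 of 8 in each genotype, with medians of 1.22 and 1.73. The part of these lists in the results was not tested.

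Genes around the complexes were followed as lists, each gene at its main probe. Of all genes measured in this way, 12.7% fell and 12.7% rose in WT, and 20.3% fell and 18.1% rose in Mapk9 KO. Of 14 measured assembly factors, 2 fell in WT and 4 fell and 1 rose in Mapk9 KO (2 rose with the replicate block), with medians of -0.11 and -0.20. Ndufaf1, which helps to assemble complex I, fell by 0.72 ± 0.21 (SE, adjusted p = 0.0281) in WT and fell by 1.29 ± 0.21 (SE, adjusted p = 0.000624) in Mapk9 KO. Of 9 electron carriers and proton leak genes, 1 fell in WT and 6 in Mapk9 KO, among them Cycs, cytochrome c, which fell by 0.82 ± 0.18 (SE). Mitochondrial ribosomal proteins are needed to translate the subunits encoded in the mitochondrial genome. Of 66, 2 fell and 2 rose in WT, and 27 fell and 1 rose in Mapk9 KO, with medians of -0.15 and -0.44. With the replicate block 6 of the 66 fell in WT (9.09%, against 14.96% of all genes). Mrps6 rose by 1.40 ± 0.22 (SE, adjusted p = 0.00129) in WT and by 1.46 ± 0.20 (SE, adjusted p = 0.000225) in Mapk9 KO.

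Of 15 measured regulators of mitochondrial biogenesis, 2 fell and 1 rose in WT, and 4 fell and 3 rose in Mapk9 KO. Ppargc1b, a coactivator of nuclear receptors that drive these genes, fell by 2.17 ± 0.24 (SE, adjusted p = 0.000179) in WT and fell by 2.93 ± 0.18 (SE, adjusted p = 8.99e-07) in Mapk9 KO. Ppargc1a, its relative, was detected on all control arrays and on 0 injured arrays, and passed the test in both genotypes. Gabpb1, a subunit of the factor that binds many promoters of subunit genes, rose by 0.70 ± 0.19 (SE, adjusted p = 0.0239) in WT and by 1.34 ± 0.20 (SE, adjusted p = 0.000403) in Mapk9 KO.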

How the data were processed

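Cartilage RNA of 12 samples was hybridized to Illumina mouse BeadChips. The authors deposited bead signal intensities of 45281 probes with a detection p-value for each, subtracted background by means of negative control probes, applied vsn and deposited log2 values of 21004 probes. Groups came from the sample labels. Between 16930 and 18969 probes were detected per array, and the number of arrays limits the precision. The members and gene lists were chosen with earlier results of these data known.

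The log2 values were tested with limma 3.58.1 (R 4.3.3) on the 6 arrays of each genotype, on the controls for genotype and on 12 arrays for the interaction, with Benjamini-Hochberg adjustment over all probes. The study names Perseus and a t-test. Named genes are subunit isoforms, the succinate dehydrogenase subunits, core subunits, genes past the fold limit, the largest changes per complex, at most 3 genes for genotype and interaction, and Mapk9. The values of 1 member gene are not reported here, though the counts include it. The fold limit used fitted values also where a bound is printed. A bound set the dim group to the lowest detected signal of each array where higher. Names were matched to RefSeq (GRCm38.p6), 83 probes by accession, 9 by symbol and 2 by older symbol. Deviations from the group means correlated at 0.153 to 0.390 over 18 pairs of samples with the same replicate number and -0.289 to 0.0825 over 36 other pairs, so the numbers pair the samples. The fits carry no block unless one is named, and values with the replicate block stand beside the results where the block changed the call of a member named in the text or moved a count by over 1.5 times. The labels name pooled samples and p-values measure the spread between pools. On simulated data with 200 of 21004 probes shifted by 2 log2 units over 5 draws, the share recovered was 91.9% for injury in WT, 91.2% for injury in Mapk9 KO, 91.7% between the control groups and 79.8% for the interaction. The simulated noise was independent between samples, and this shift is far larger than the median interaction of the members (-0.60). The shares therefore do not measure the power to find changes of the size most members had. The alternatives were other background correction and normalization, other probe filters, all 12 arrays in 1 fit, the methods' t-test, a block for the replicate number or for the label code number, 1 probe per gene, the muscle list mean as a covariate (in all 12 arrays, added after the data were seen) and each array left out.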

Additional observations from a re-analysis of the deposited data

How the results depend on the processing

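Each count below is of the 94 probes unless genes are named, and the direction is given as in the text. For members that fell in WT (4), the counts were 16 with normexp and quantile normalization, 26 with quantile normalization and no background correction, 7 over all probes of the array, 9 with all 12 arrays fitted together, 11 with replicate numbers as a block (which ended no call of a member) and 0 with the muscle list mean as a covariate in either fit. By the methods' t-test 4 fell, of which only Sdhc was called in the text, and none of the muscle isoforms was among these or among the 7 over all probes. Leaving out each array gave 2 to 9, with 9 without WT control replicate 1 and 2 without WT injured replicate 1. For members that rose in WT (3), the methods' t-test gave 0, and the all-probe fit, 1 probe per gene and both muscle covariate fits gave 1 (1 to 4 when leaving out each array, with 1 without WT control replicate 1, WT injured replicate 1 or WT injured replicate 2). In Mapk9 KO, 39 fell by the methods' t-test and 0 with the muscle covariate in either fit, against 66 (50 to 67 when leaving out each array), and the risers were 1 by the t-test, 1 with 1 probe per gene and 0 with either muscle covariate, against 2 (2 in each case when leaving out each array). Past the fold limit in WT (4) were 1 over all probes, 0 by the t-test and 1 with either muscle covariate (3 to 7 when leaving out each array, 7 without WT control replicate 1), and in Mapk9 KO (27) 16 with quantile normalization alone and 0 with either muscle covariate (22 to 37). Members with a genotype effect were 0 to 4 and with an interaction 0 to 2 when leaving out each array, the upper values without WT control replicate 3, and 0 under every other alternative run, the replicate block included. The isoform pairs were recomputed with normexp and quantile normalization, paired by replicate, for Cox6a1 with its other probes, and with each array left out, and kept their direction there, at -3.02 to -2.47, -3.94 to -3.31 and -4.50 to -3.78 when leaving out each array (exact p up to 0.01). They were not tested with the covariate, where the change of Cox6a2 in WT was above that of Cox6a1 in either fit. Among the named genes, values that changed sign after being called lay in the covariate fits, with no adjusted p under the threshold: in WT alone Cox6a2 0.070, Cox7a1 0.055 and Cox8b 0.031, on 12 arrays Cox6a2 0.17 and Cox8b 0.013 in WT, in Mapk9 KO alone Atp5g1 0.36, Atp5j 1.23, Cox5a 1.08, Cox5b 0.80, Cox6a2 0.21, Cox6b 1.15, Ndufa11 0.61, Ndufa3 1.40, Ndufa4 0.61, Ndufa5 0.28, Ndufa9 0.10, Ndufb8 0.77, Ndufc1 0.52, Ndufs7 0.26, Ndufv1 0.78, Ndufv2 0.88, Uqcr 0.78 and Uqcrc1 0.63, and on 12 arrays Cox7b 0.014, Ndufb10 0.045, Ndufb2 0.35, Ndufb5 0.49 and Uqcrb 0.54. The cause was not tested, beyond the wider standard errors of these fits. Within each number of the label code, whose meaning the labels do not give, the 5 named genes called in WT and the 32 called in Mapk9 KO kept their sign.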

Other observations

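Some further subunits stand in the normalized table under older names, which the choice by symbol did not take. Ndufa12 (2410011G03Rik in the table), an accessory subunit of complex I, changed by -0.19 ± 0.21 (SE) in WT and fell by 0.98 ± 0.20 (SE, limma adjusted p = 0.00312) in Mapk9 KO. Ndufa13 (Grim19) fell by 0.61 ± 0.20 (SE, limma adjusted p = 0.0317) in Mapk9 KO, and both probes of Uqcr10 (1110020P15Rik), a small subunit of complex III, fell by 0.67 and fell by 0.64 there. The 3 probes of Ndufv3 (1500032D16Rik) and the 2 of Ndufb11 (Np15) passed in neither genotype, at values between -0.43 and 0.46. Coxvib2, the testis form of subunit 6b now named Cox6b2, was detected on all 12 arrays at this probe, changed by -0.52 ± 0.23 (SE) in WT and fell by 1.00 ± 0.18 (SE, limma adjusted p = 0.00113) in Mapk9 KO, while the probe that carries the symbol Cox6b2 was detected on 0 arrays.

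Of the 20 member genes with several probes, 3 had probes of opposite sign in Mapk9 KO (Atp5f1, Ndufa6 and Uqcrb) and 4 had both called and uncalled probes there (Atp5f1, Atp5j, Atp5l and Ndufb8). The second Ndufb8 probe read -0.07 ± 0.18 (SE) in Mapk9 KO where the main probe fell by 1.12 ± 0.19 (SE, limma adjusted p = 0.00103).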
